A study of Mus musculus with 8 samples.

Results

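The semaphorins, plexins and neuropilins were examined in cells that had been sorted for GFP out of mouse amygdala at E16.5 (embryonic day). They were taken as every row of the expected-count matrix with a symbol of the Sema3 to Sema7 classes, of the 9 plexins or of the 2 neuropilins, which gave 31 of 32543 genes (20 ligands and 11 receptors). The sorted cells are labelled as amygdalar intercalated cells, which are small clusters of GABAergic neurons around the basolateral amygdala. Embryos of genotype Tshz1 GFP/+ served as control and embryos of genotype Tshz1 GFP/RA as knockout. Each genotype has 4 libraries, with titles that begin with NX, NY, QT or RM, although the design text speaks of triplicates. Both genotypes carry 1 GFP allele of Tshz1, and the controls are heterozygous. The labels do not give what the RA allele lacks. Mice were kept on an outbred background, the embryos of 1 genotype were pooled before the sort, and the gate takes any cell with GFP in the dissected tissue. P-values measure the spread between these pools, which the labels do not describe as separate litters.

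Semaphorins are secreted or membrane-bound guidance cues that share a sema domain. Plexins are their main receptors and carry a GTPase-activating domain on the inner side of the membrane, through which they loosen adhesion and the cytoskeleton of growth cones and migrating cells. Most secreted class 3 semaphorins bind a neuropilin, which has no signalling domain of note and passes the signal on through an A plexin, whereas the transmembrane classes bind plexins directly. In the embryonic ventral forebrain this system is known for steering migrating GABAergic neurons around the striatum and for sorting axons.

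The libraries held 5785549 to 14535810 expected counts, so 3 counts, used as the limit that a count of 0 allows, equalled 0.186 to 0.545 CPM. Tshz1 itself was lower in the knockout, with 492 (NX), 240.0 (NY), 457 (QT) and 337 CPM (RM) in control libraries and 121 (NX), 61.6 (NY), 78.1 (QT) and 55.9 CPM (RM) in knockout libraries, without overlap (adjusted p = 0.0388, edgeR's quasi-likelihood test; no gene at all was called when control NX, control QT, control RM, knockout NY or knockout QT was left out). All 9 marker genes of intercalated cells were detected in all 8 libraries, with summed levels of 2917 to 5125 CPM in control and 2666 to 3627 CPM in knockout libraries. They included Gad2, the GABA-synthesising enzyme, at 1372 ± 296 CPM (SD, n = 4) and Oprm1, the mu opioid receptor, at only 5.10 ± 2.83 CPM in control. Markers of other cells were present too: 10 cell cycle genes summed to 129 to 749 CPM in control and 161 to 1233 CPM in knockout libraries, with 9 of 10 fitted higher in the knockout and none called. The 9 intercalated cell markers were all fitted lower in the knockout, with only Tshz1 called, and so were the 11 tested of 13 microglia markers, with none called. The part of these shifts in the values below was not tested. The control NX library stood apart from the other 7 for several genes, and the largest shifts without it are given below. In such bulk samples, fewer cells of a type and less RNA per cell cannot be told apart.

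Receptors were led by the A plexins, through which class 3, 5 and 6 semaphorins signal. Plxna2 had the highest level of the whole family on the TPM scale, which is per length, with 170.0 (NX), 168 (NY), 254 (QT) and 176 TPM (RM) in control libraries and 237 (NX), 195 (NY), 281 (QT) and 121 TPM (RM) in knockout libraries. Its control mean of 192 TPM lay above that of 97.1% of the 14157 tested genes. Plxna4, a receptor for class 6 semaphorins and a partner of neuropilins, came next with 88.9 (NX), 93.1 (NY), 175 (QT) and 115 TPM (RM) in control libraries and 96.6 (NX), 113 (NY), 136 (QT) and 70.6 TPM (RM) in knockout libraries. Plxna2 was above Plxna4, and Plxna4 above Plxna1, in 8 of 8 libraries, while Plxna1 (54.3 ± 16.4 TPM in control) and Plxna3 (39.8 ± 8.76 TPM) changed places between libraries, with Plxna1 higher in 6 of 8. Plxna2 lies on the plus strand at chr1:194618218-194816869 and Plxna4 on the minus strand at chr6:32144268-32588192 (GRCm38, both protein-coding). An antisense model (Plxna4os3) overlaps exons of Plxna4, and Gm26811 overlaps those of Plxna1, from which counts without strand cannot be separated.

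Of the neuropilins, Nrp2, the co-receptor best known for Sema3f, was well above Nrp1, the co-receptor best known for Sema3a. Nrp2 had 55.8 (NX), 67.0 (NY), 88.1 (QT) and 69.3 TPM (RM) in control libraries and 130.1 (NX), 36.2 (NY), 74.2 (QT) and 46.3 TPM (RM) in knockout libraries. Nrp1 gave 2.12 (NX), 28.2 (NY), 20.0 (QT) and 18.3 TPM (RM) in control and 27.3 (NX), 12.2 (NY), 19.8 (QT) and 9.05 TPM (RM) in knockout libraries. Nrp2 exceeded Nrp1 in 8 of 8 libraries, by a factor of 2.38 at the least (control NY) and 26.3 at the most (control NX, where Nrp1 stood at 2.12 TPM). Nrp2 lies at chr1:62703285-62818695 and Nrp1 at chr8:128358604-128503363, both on the plus strand.

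Among the other plexins, Plxnb2, Plxnb1 and Plxnc1 were at like levels and Plxnd1 and Plxnb3 were low. Plxnb2, a receptor for class 4 semaphorins with a known role in proliferating and migrating neural precursors, had 24.4 (NX), 29.1 (NY), 59.8 (QT) and 31.3 TPM (RM) in control libraries. Plxnb1, the receptor of Sema4d, had 19.7 (NX), 32.3 (NY), 50.6 (QT) and 28.9 TPM (RM) there, and the order of these 2 genes held in only 5 of 8 libraries. Plxnc1, the receptor of Sema7a, was the steadiest of the class in control (24.8 ± 1.85 TPM, SD, n = 4). Plxnd1, the receptor of Sema3e and a known endothelial gene, reached only 2.67 ± 2.44 TPM, and Plxnb3 had at most 7 counts in any library and was not tested. Gm7628 overlaps exons of Plxnb1 on the other strand.

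**Figure D1:**
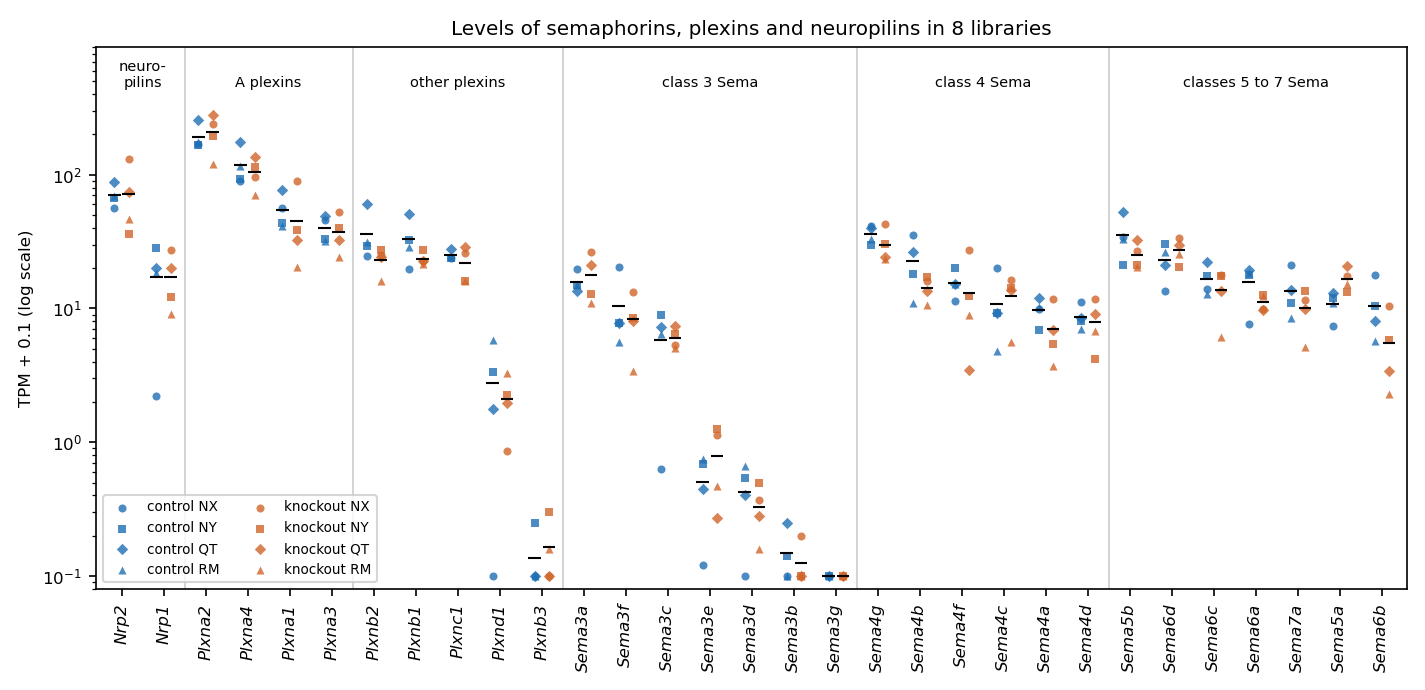
Level of each of the 31 genes in each library as TPM + 0.1 on a log axis, by class and in order of the control mean; blue symbols are control and orange symbols knockout libraries, the shape gives the title prefix and the short bars are means of 4. Plxna2 and Plxna4 stand highest, the class 3 ligands run from clear levels down to 0, and the control NX circle lies far below the other controls for Nrp1, Plxnd1 and Sema3c.

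Ligand levels were lower than those of the receptors: the 20 semaphorins together made up 259.9 ± 31.7 TPM in control, against 588 ± 145 TPM for the 11 receptors (SD, n = 4). Sema4g, a transmembrane semaphorin, had the highest control mean of the ligands, just above Sema5b, with 41.2 (NX), 29.7 (NY), 39.6 (QT) and 32.8 TPM (RM) in control libraries and 42.5 (NX), 30.0 (NY), 24.0 (QT) and 23.3 TPM (RM) in knockout libraries. It was above Sema4b, the next of its class in control, in 8 of 8 libraries, but the first place among all ligands went to Sema4g in 3, Sema5b in 3 and Sema6d in 2 libraries. Below it in class 4, Sema4b (22.6 TPM), Sema4f (15.4), Sema4c (10.7), Sema4a (9.65) and Sema4d (8.60 TPM in control) kept no fixed order, since each was above the next in 4 to 6 of 8 libraries. D430040D24Rik overlaps exons of Sema4c on the other strand.

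In classes 5 to 7 the control order began with Sema5b and Sema6d. Sema5b, a transmembrane protein with thrombospondin repeats that acts through A plexins, had 34.0 (NX), 21.2 (NY), 52.3 (QT) and 32.8 TPM (RM) in control and 26.6 (NX), 20.9 (NY), 32.1 (QT) and 20.2 TPM (RM) in knockout libraries. Sema6d, a transmembrane ligand of Plxna1, had 13.4 (NX), 30.4 (NY), 21.0 (QT) and 26.2 TPM (RM) in control and 33.7 (NX), 20.3 (NY), 29.9 (QT) and 25.2 TPM (RM) in knockout libraries. Neither was steadily above the other, with Sema5b higher in 3 control and 2 knockout libraries. The remaining genes of these classes had control means from 10.4 TPM (Sema6b) to 16.51 TPM (Sema6c), with Sema6a at 15.7, Sema7a at 13.4 and Sema5a at 10.8 TPM between them.

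The secreted class 3 ranged from a clear level to none. Sema3a, the classical growth cone collapsing factor, had 19.7 (NX), 14.8 (NY), 13.3 (QT) and 14.8 TPM (RM) in control libraries and 26.3 (NX), 12.8 (NY), 21.0 (QT) and 10.8 TPM (RM) in knockout libraries. Sema3f, the Nrp2 ligand, had 20.4 (NX), 7.70 (NY), 7.64 (QT) and 5.53 TPM (RM) in control and 13.1 (NX), 8.37 (NY), 7.94 (QT) and 3.30 TPM (RM) in knockout libraries. Sema3a was the higher of this pair in 7 of 8 libraries, control NX being the exception. Sema3c reached 5.74 ± 3.62 TPM, whereas Sema3e (0.403 ± 0.286) and Sema3d (0.325 ± 0.241 TPM, SD, n = 4) were low. Over the 8 libraries Sema3e had 1 to 52 counts and Sema3d 0 to 22 counts. Sema3b had at most 3 counts in a library. Sema3g had 0 counts in 8 of 8 libraries, which allows a level of up to 0.186 CPM in the deepest library and up to 0.545 CPM in the shallowest.

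Set side by side on the TPM scale, known partners were often unequal in control cells. Sema3f (10.3 TPM) stood beside a high Nrp2 (70.04 TPM), and Sema3a (15.6 TPM) beside a like level of Nrp1 (17.2 TPM). Sema6a (15.7 TPM) stood beside its receptors Plxna2 (192 TPM) and Plxna4 (118 TPM). Sema4d (8.60 TPM) was below its receptor Plxnb1 (32.9 TPM), and Sema7a (13.4 TPM) below Plxnc1 (24.8 TPM). For Sema3e and Plxnd1 both partners were low, at 0.403 and 2.67 TPM. Transcript levels in a mixed pool of sorted cells do not show that 1 cell holds both partners.

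The stretches before the transcription start are shown for 1 neuropilin and 1 A plexin with clear levels and for 2 of the 3 genes with no or almost no counts (the table used has no entry for the other, Sema3b), because their content of CG dinucleotides, the letters CG in capitals, differed. The sequences are from RefSeq (GRCm38.p6), run 5′ to 3′ on the plus strand and stop before the first annotated exon. They cover chr1:62703067-62703284 for Nrp2, chrX:74328816-74329065 for Plxna3, chr14:31217623-31217859 for Sema3g and chrX:73756853-73757089 for Plxnb3.
Nrp2: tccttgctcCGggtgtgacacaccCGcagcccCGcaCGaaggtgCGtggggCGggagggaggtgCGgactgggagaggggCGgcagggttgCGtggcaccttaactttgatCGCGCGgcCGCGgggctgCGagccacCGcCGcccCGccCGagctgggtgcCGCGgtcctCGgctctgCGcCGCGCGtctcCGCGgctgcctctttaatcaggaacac
Plxna3: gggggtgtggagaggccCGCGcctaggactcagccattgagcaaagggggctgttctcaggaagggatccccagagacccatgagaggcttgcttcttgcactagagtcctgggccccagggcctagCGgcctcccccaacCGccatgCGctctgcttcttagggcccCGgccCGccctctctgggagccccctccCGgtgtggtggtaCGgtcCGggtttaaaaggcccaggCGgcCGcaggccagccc
Sema3g: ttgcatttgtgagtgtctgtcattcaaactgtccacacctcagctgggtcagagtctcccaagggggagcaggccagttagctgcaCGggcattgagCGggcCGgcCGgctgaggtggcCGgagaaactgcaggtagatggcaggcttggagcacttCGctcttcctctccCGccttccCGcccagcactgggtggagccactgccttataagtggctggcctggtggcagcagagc
Plxnb3: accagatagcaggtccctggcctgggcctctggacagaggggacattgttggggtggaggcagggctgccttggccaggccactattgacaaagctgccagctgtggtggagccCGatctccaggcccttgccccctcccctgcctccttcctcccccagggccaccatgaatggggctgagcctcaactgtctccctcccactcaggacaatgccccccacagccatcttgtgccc
These stretches hold 28 (Nrp2), 12 (Plxna3), 8 (Sema3g) and 1 (Plxnb3) CG dinucleotides. CG reads the same on both strands.

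The promoter table matched 26 of the 31 genes. Counted over the 250 bases before each start and taking the richest start of a gene, 15 of the 26 had at least 15 CG dinucleotides, as did 29.6% of all genes in the table, and 92.1% of all promoters held at least 1. The level did not simply follow this count: Sema3c had 39 CG dinucleotides and 5.74 TPM in control, while Sema3a had 2 and 15.6 TPM. Plxnd1, at 2.67 TPM, had 16.

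Knockout was then compared with control, which asks whether the disruption of Tshz1 goes with another set of guidance receptors or cues. No gene of the family was called at an adjusted p under 0.05 in edgeR's quasi-likelihood test, neither higher nor lower: 0 of the 28 tested, where the whole table had 0.0353% of its 14157 genes called (0.0283% lower and 0.00706% higher). DESeq2 and limma-voom called 0 as well. At an unadjusted p under 0.05 there were 2 of 28 (Sema6b and Sema4b, both fitted lower), against 3.62% of all genes (1.91% lower and 1.7% higher), and DESeq2 had 2 and limma-voom 1 of the family at that level. Over the 20 alternatives this count ran from 0 (among others without control NY, knockout QT or knockout RM) to 5 (without both NX libraries). The 3.62% belongs to the main fit. The shares of all genes in the other fits are not given here, so nothing is read from the counts of those fits. For none of the 28 were the genotypes free of overlap in CPM, against 2.59% of all genes (1.46% lower and 1.13% higher). The fitted value was lower in the knockout for 20 of 28 (71.4%, beside 50.6% of all genes, with 49.4% fitted higher), with a median log2 fold change of -0.22 beside -0.0053 over all genes. Every one of the 28 adjusted p-values rounded to 1.00.

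**Figure D2:**
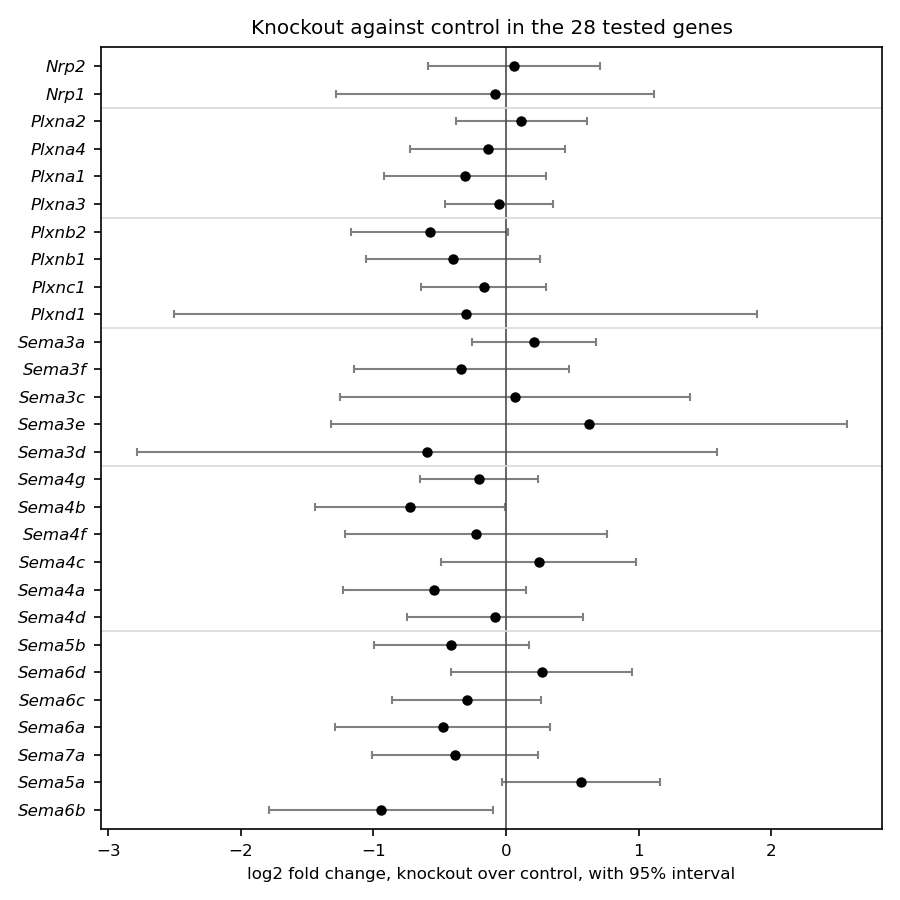
Log2 fold change of knockout over control for the 28 tested genes by class, from edgeR's quasi-likelihood fit; points are estimates and bars 95% intervals. The points run from -0.94 (Sema6b) to 0.62 (Sema3e), and only the intervals of Sema6b and Sema4b, before adjustment for the number of genes, do not reach 0.

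By class, the fits lay lower for 4 of 4 tested plexins outside the A group (median -0.35) and 3 of 4 A plexins (median -0.10). Of the ligands, 5 of 6 class 4 semaphorins (median -0.22) and 5 of 7 genes of classes 5 to 7 (median -0.38) were fitted lower. Among the 5 tested class 3 genes 2 were fitted lower (median 0.070), and the neuropilins lay 1 on each side. None of these genes passed the test.

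Sema6b, a transmembrane semaphorin that binds A plexins, had the lowest p of the family. It had 29.2 (NX), 21.4 (NY), 14.4 (QT) and 13.3 CPM (RM) in control libraries and 16.1 (NX), 11.4 (NY), 6.09 (QT) and 6.82 CPM (RM) in knockout libraries. Each prefix had its knockout library below its control library, but the genotypes overlapped because knockout NX exceeded control QT and control RM. The log2 fold change was -0.94 (SE 0.39, 95% interval -1.79 to -0.10, unadjusted p = 0.0314 by edgeR, exact two-sided permutation p = 0.0857). Without the control NX library, its highest, the log2 fold change was -0.68. Sema6b lies on the minus strand at chr17:56123085-56140343.

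Sema4b, a class 4 transmembrane semaphorin, had 58.5 (NX), 35.8 (NY), 42.9 (QT) and 18.5 CPM (RM) in control libraries. Its knockout libraries held 19.5 (NX), 32.5 (NY), 19.5 (QT) and 22.8 CPM (RM). The control values were spread from the lowest to the highest of all 8, with control RM below every knockout library. The log2 fold change was -0.73 (SE 0.33, 95% interval -1.44 to -0.011, unadjusted p = 0.0470 by edgeR, exact two-sided permutation p = 0.171), and -0.46 without control NX. Its expected counts were within 0.005 of a whole number in only 3 of 8 libraries. Sema4b lies on the plus strand at chr7:80186841-80226527.

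Plxnb2 had 72.2 (NX), 101 (NY), 189.8 (QT) and 132 CPM (RM) in control and 68.4 (NX), 95.4 (NY), 80.4 (QT) and 87.5 CPM (RM) in knockout libraries. Knockout was lower in 4 of 4 prefixes, by little in NX and NY, and the genotypes overlapped. The log2 fold change was -0.58 (SE 0.27, interval -1.17 to 0.015, unadjusted p = 0.0552 in edgeR's test), with control QT and RM the 2 highest libraries. Plxnb1 gave 77.6 (NX), 158 (NY), 222 (QT) and 164 CPM (RM) in control and 83.8 (NX), 129 (NY), 99.1 (QT) and 159 CPM (RM) in knockout libraries, again with control QT highest (log2 fold change -0.40, SE 0.30). Plxnb2 lies on the minus strand at chr15:89155549-89180788.

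Sema5a, chosen after its values were seen, went the other way. This relative of Sema5b had 28.9 (NX), 61.2 (NY), 67.0 (QT) and 54.2 CPM (RM) in control and 72.4 (NX), 57.4 (NY), 84.2 (QT) and 98.5 CPM (RM) in knockout libraries, higher in the knockout in 3 of 4 prefixes. Its log2 fold change was 0.56 (SE 0.27, interval -0.032 to 1.16, unadjusted p = 0.0618 in edgeR's test) and 0.36 without control NX, its lowest library. Sema5b had 68.4 (NX), 53.6 (NY), 118 (QT) and 94.9 CPM (RM) in control and 50.7 (NX), 51.0 (NY), 73.1 (QT) and 77.0 CPM (RM) in knockout libraries (log2 fold change -0.41, SE 0.27). Sema5a lies at chr15:32244810-32696341 and Sema5b at chr16:35541145-35664732, both on the plus strand.

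The ratio of Sema5a to Sema5b in TPM, also chosen after the values were seen and so given without a test, was 0.216 (NX), 0.564 (NY), 0.250 (QT) and 0.329 (RM) in control libraries. In knockout libraries it was 0.656 (NX), 0.630 (NY), 0.641 (QT) and 0.747 (RM), all above the highest control value. The gap depends on the unit, since TPM divides by a transcript length that RSEM fits in each library. That length of Sema5a was 9017 bases in control NY and 7977 in knockout NY. In CPM the NY libraries held 61.2 and 53.6 (control) and 57.4 and 51.0 (knockout) of Sema5a and Sema5b. The CPM ratio was thus lower in knockout NY than in control NY, and the genotypes overlapped. Expected counts of both genes were more than 0.005 from a whole number in 8 of 8 libraries, which happens where RSEM divides fragments among genes. The same held for Sema4f and Sema6d, and in 7 of 8 libraries for Nrp2 and Sema3a.

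**Figure D3:**
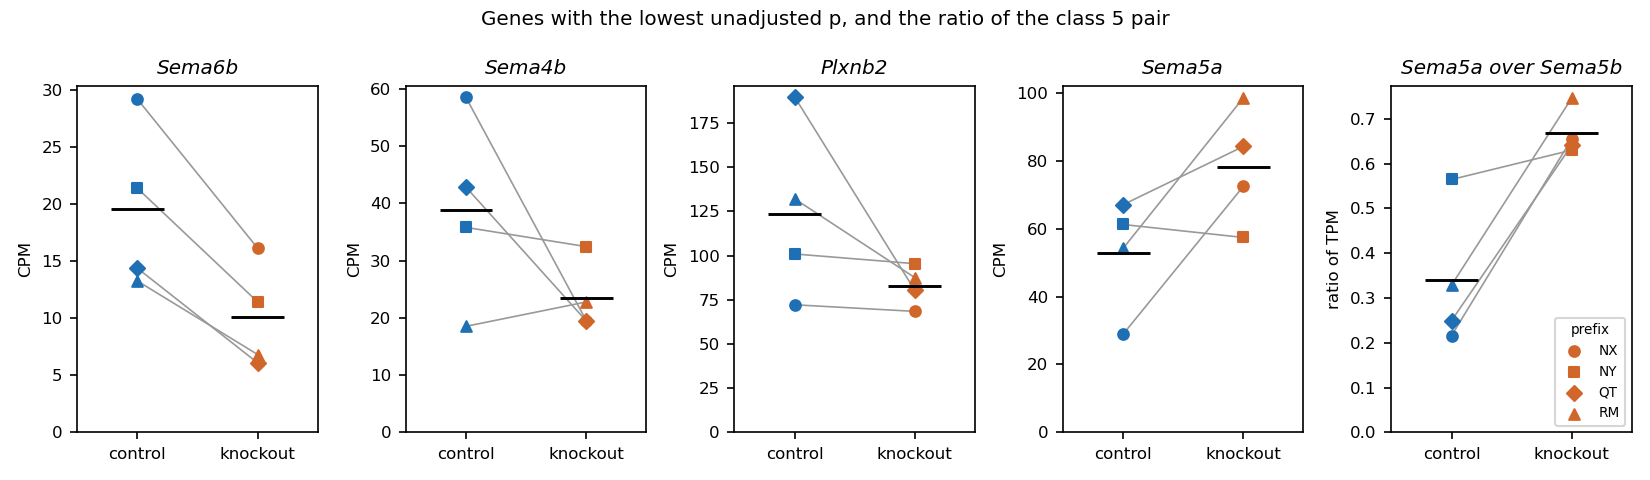
CPM of Sema6b, Sema4b, Plxnb2 and Sema5a and the ratio of Sema5a to Sema5b in TPM, for control (blue) and knockout (orange) libraries; grey lines join libraries of the same title prefix and black bars are means of 4. The genotypes overlap for the 4 genes and not for the ratio in TPM, whose lowest knockout value is 0.630 and highest control value 0.564. In CPM the ratio of knockout NY lies below that of control NY.

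Shares within a class are given as a description, picked after their values were seen. Sema5a held 6.40% to 9.98% of the summed TPM of classes 5 to 7 in control and 12.8% to 17.5% in knockout libraries. Plxna2 held 45.8% to 49.8% of the A plexins in control and 49.9% to 58.3% in knockout libraries, with the lowest knockout share just above the highest control share. These were the 2 of 31 shares without overlap between genotypes, where 2.59% of all genes had none in CPM, and nothing is read from their number. Nrp2 held 81.8% ± 10.8 of the neuropilin TPM in control and 80.0% ± 4.01 in knockout, and Sema4g 35.3% ± 4.03 and 36.1% ± 2.72 of class 4 (SD, n = 4).

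For the most abundant receptors the fit bounded the difference. Plxna2 had 703 (NX), 830.1 (NY), 1213 (QT) and 1011 CPM (RM) in control and 919 (NX), 934 (NY), 1257 (QT) and 961 CPM (RM) in knockout libraries, a log2 fold change of 0.12 with a 95% interval of -0.38 to 0.61. Plxna4 had 518 (NX), 670.1 (NY), 1136 (QT) and 968 CPM (RM) in control and 534 (NX), 786 (NY), 896 (QT) and 775 CPM (RM) in knockout libraries (-0.14, interval -0.72 to 0.45). The controls of both genes were lowest in NX and highest in QT, and the spread within a genotype was wider than the difference between genotypes. For Plxna3 (143 ± 19.5 against 138 ± 18.0 CPM) the log2 fold change was -0.052 (interval -0.46 to 0.35), and for Plxna1 (264 ± 60.9 against 213 ± 93.8 CPM) -0.31 (interval -0.92 to 0.30). In the fit of all libraries these intervals exclude a 2-fold change in either direction for the 4 A plexins before any adjustment. They do not show equal levels. The value for Plxna1 leaned on knockout NX, at 351 CPM against 153 to 189 CPM in the other knockout libraries. Without both NX libraries its log2 fold change was -0.71.

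Of the neuropilins, Nrp1 was less well bounded, while the interval of Nrp2 was about as wide as those of Plxna1 and Plxna4. Nrp2 had 143 (NX), 215 (NY), 218 (QT) and 220.3 CPM (RM) in control and 329 (NX), 105 (NY), 207 (QT) and 188 CPM (RM) in knockout libraries, so that knockout NX was the highest and knockout NY the lowest of all 8 (log2 fold change 0.060, interval -0.59 to 0.71). Nrp1 had 5.64 (NX), 83.0 (NY), 55.7 (QT) and 62.0 CPM (RM) in control and 66.9 (NX), 31.0 (NY), 56.0 (QT) and 40.3 CPM (RM) in knockout libraries (-0.084, interval -1.28 to 1.11). Without control NX the value for Nrp1 was -0.46, and without both NX libraries -0.66.

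Of the leading ligands, Sema4g had 79.5 (NX), 70.02 (NY), 84.2 (QT) and 87.6 CPM (RM) in control and 76.4 (NX), 66.8 (NY), 51.5 (QT) and 83.7 CPM (RM) in knockout libraries (log2 fold change -0.21, interval -0.65 to 0.24). In CPM its knockout library was the lower one in 4 of 4 prefixes, by more than a few CPM only in QT. Sema3a had 57.7 (NX), 52.3 (NY), 46.1 (QT) and 53.8 CPM (RM) in control and 75.0 (NX), 44.1 (NY), 67.3 (QT) and 56.9 CPM (RM) in knockout libraries (0.21, interval -0.25 to 0.68). Sema3f had 31.4 (NX), 14.3 (NY), 12.8 (QT) and 11.8 CPM (RM) in control and 18.5 (NX), 14.99 (NY), 12.9 (QT) and 9.15 CPM (RM) in knockout libraries (-0.34), and its sign turned to 0.11 without control NX. Sema6d had 36.6 (NX), 102 (NY), 61.3 (QT) and 98.1 CPM (RM) in control and 85.3 (NX), 64.1 (NY), 87.8 (QT) and 122 CPM (RM) in knockout libraries (0.27). In all 4 genes the 2 genotypes overlapped.

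The remaining tested genes lay between log2 fold changes of -0.60 (Sema3d, interval -2.79 to 1.59) and 0.62 (Sema3e, interval -1.32 to 2.57), both at a few CPM or less. Sema4a went from 15.5 ± 3.63 to 10.6 ± 2.75 CPM (-0.54), Sema6a from 58.4 ± 24.1 to 41.9 ± 18.0 CPM (-0.48) and Sema7a from 22.1 ± 5.71 to 16.9 ± 4.24 CPM (-0.38; SD, n = 4 per genotype). Sema6c stood at -0.30, Sema4f at -0.23, Plxnc1 at -0.17 and Sema4d at -0.082. Sema4c stood at 0.25 and at 0.62 without control NX. None of them passed the test.

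One control library stood apart for several of these genes. Control NX was the lowest of the 8 libraries for 11 of the 28 tested genes and the highest for 5, while it was the lowest for 17.6% and the highest for 16.2% of all tested genes. Nrp1 stood there at 5.64 CPM against 31.0 to 83.0 CPM in the other 7 libraries. Sema3c, a ligand of both neuropilins, stood at 1.18 CPM against 11.03 to 24.1 CPM. Plxnd1 had 0 counts in control NX, which allows up to 0.186 CPM, against 2.25 to 25.99 CPM elsewhere. The opposite held for Sema3f, at 31.4 CPM there and 9.15 to 18.5 CPM in the rest. Sema3c and Plxnd1 were chosen after their values were seen. Without control NX the log2 fold change went to -0.32 for Sema3c, -0.73 for Plxnd1, -1.03 for Sema3d and 0.21 for Sema3e. It went to 0.042 for Sema6d, -0.74 for Sema6a, -0.19 for Sema7a and -0.42 for Sema4f. Among the plexins it went to -0.62 for Plxnb1, -0.76 for Plxnb2, -0.31 for Plxna4 and 0.00083 for Plxna2.

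Summed markers of other cell types were also lowest in control NX. The 9 intercalated cell markers, in contrast, summed highest there, at 5125 CPM against 2666 to 4181 CPM in the other 7 libraries. Singly, Meis2, Gad1, Slc32a1, Pax6 and Oprm1 were highest in another library, and only Tshz1, Foxp2, Gad2 and Drd1 were highest in control NX. The 5 oligodendrocyte precursor markers summed to 0.558 CPM there, 2.79 CPM in knockout NX and 15.2 to 58.0 CPM in the other 6 libraries. The 13 microglia markers summed to 11.4 CPM in control NX and 17.9 CPM in knockout NX, against 40.3 to 189.5 CPM. The 9 pallial glutamatergic markers summed to 44.0 CPM in control NX and 202 to 544 CPM in the other 7, and the 9 markers of progenitors and radial glia to 159 against 244 to 925 CPM. The 10 vascular and meningeal markers summed to 1.43 CPM in control NX and 2.79 CPM in knockout NX, against 5.43 to 58.5 CPM. The part of these cells in the levels of Nrp1, Sema3c and Plxnd1 was not tested.

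**Figure D4:**
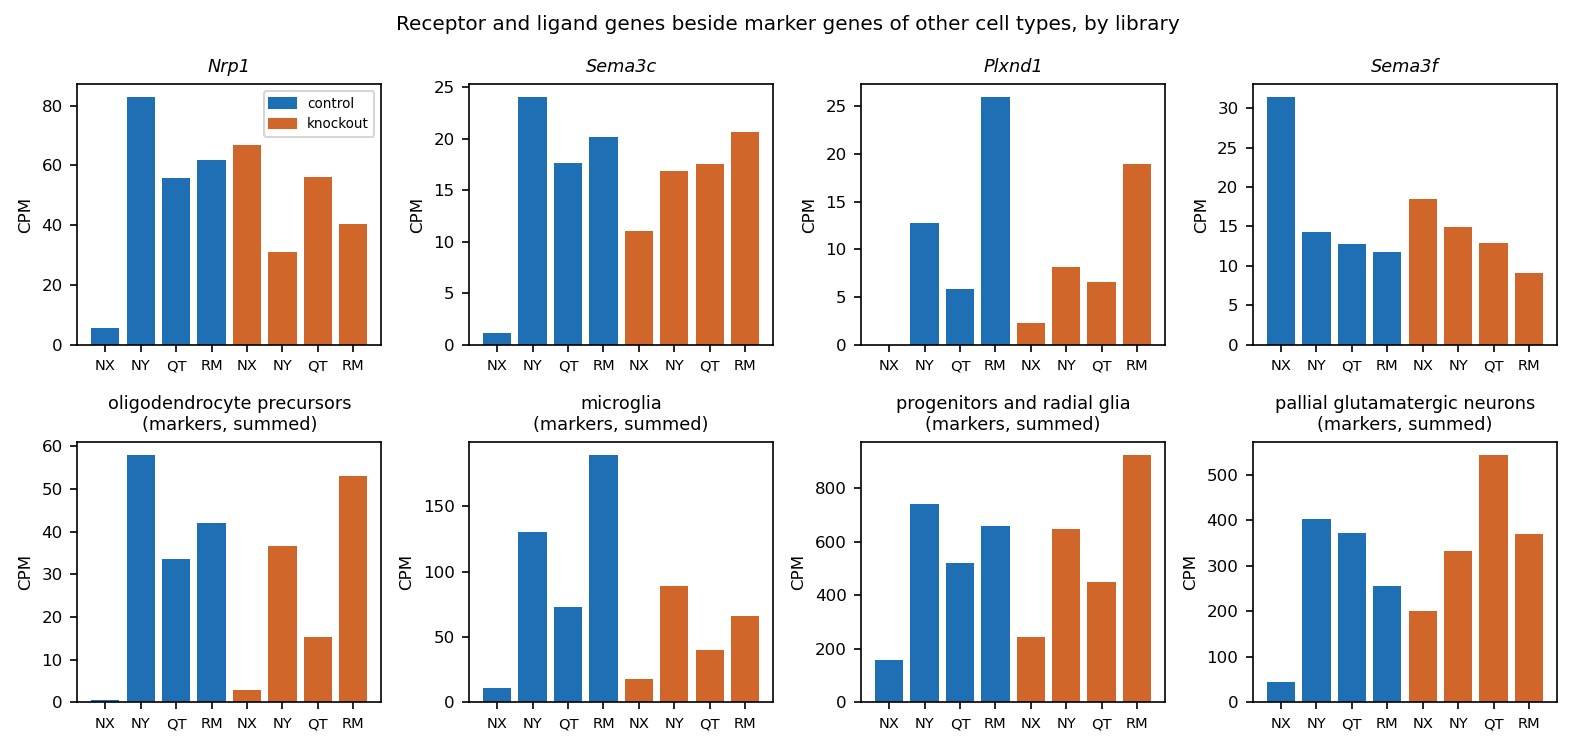
CPM in each library of Nrp1, Sema3c, Plxnd1 and Sema3f (top) and of the summed markers of 4 other cell types (bottom), control libraries in blue and knockout libraries in orange. The first bar, control NX, is the lowest in 7 panels and the highest for Sema3f.

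The mean transcript length that RSEM gives per gene moves only when the mix of a gene's transcripts moves, so it was compared as a second readout. Of 7366 genes with more than 1 transcript and at least 1 TPM in every library, 0% were called (0 at an adjusted p under 0.05 in limma, and 3.61% at an unadjusted p under 0.05), and 0 of the 19 family genes among them reached either level. The lowest p was that of Sema4a, with 3101 ± 12.5 bases in control and 3072 ± 20.8 in knockout libraries (unadjusted p = 0.0528 in limma). Sema6a had a mean of 6683 ± 91.7 bases in control and 6364 ± 277 bases in knockout libraries (SD, n = 4; unadjusted p = 0.0638 in limma). Sema4f had 3673 ± 101 against 3841 ± 115 bases (unadjusted p = 0.0596 in limma). The widest range belonged to Sema5a, from 7601 to 10025 bases over the 8 libraries, with the genotypes mixed. These 4 genes were chosen after their values were seen.

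Other genes of semaphorin signalling were read from a list of 54 co-receptors and effectors, of which 46 were tested. None was called in either direction, and 3 of 46 had an unadjusted p under 0.05 in edgeR's test (1 higher, 2 lower), against the 3.62% given above. Farp1, a FERM-domain guanine nucleotide exchange factor, had 83.8 (NX), 78.2 (NY), 79.3 (QT) and 99.0 CPM (RM) in control and 65.4 (NX), 55.7 (NY), 42.8 (QT) and 59.1 CPM (RM) in knockout libraries (log2 fold change -0.61, SE 0.20). Mical3, of the MICAL oxidases that act on actin downstream of plexins, had 144 (NX), 123 (NY), 133 (QT) and 154 CPM (RM) in control and 97.8 (NX), 112 (NY), 83.4 (QT) and 108 CPM (RM) in knockout libraries (-0.47, SE 0.18). Farp1, Mical3 and Gipc1 (named after its values were seen) were the 3 of 46 whose genotypes did not overlap, all lower in the knockout, where 1.46% of all genes did so. The 5 collapsin response mediators, cytosolic relays of Sema3a, overlapped between genotypes and lay on both sides of 0, with log2 fold changes of 0.30 (Dpysl2), 0.17 (Dpysl3), -0.30 (Dpysl4), -0.21 (Dpysl5) and -0.15 (Crmp1). Their control means ran from 60.1 ± 12.9 CPM (Dpysl4) to 1843 ± 388 CPM (Dpysl3; SD, n = 4). The median log2 fold change of the 46 was -0.087.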

How the data were processed

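RNA was measured in 8 libraries, 4 per genotype, of GFP-sorted cells. Per the labels' protocols, a NuGEN Ovation kit amplified the cDNA before Nextera XT library preparation. Trimmomatic 0.33, Bowtie2 (version not given in the sources used here), RSEM 1.2.22 and build mm10 are named per the submitters' processing notes. Per the file headers, the deposited values are RSEM expected counts (estimated fragments, not always whole) and TPM per gene. The authors' FPKM column was deposited too and is not used in any result. The authors' TPM is per effective length and carries no depth. The protocol named does not mark strand, and fragments carry no molecular identifiers, so the 3-count floor covers counting error only.

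Expected counts were rounded and tested with edgeR 4.0.16 (R 4.3.3): filterByExpr, TMM factors, and glmQLFit with glmQLFTest for genotype over 14157 of 32543 genes, with Benjamini-Hochberg adjustment and a threshold of 0.05. Genes were compared with each other in TPM and libraries in TMM-scaled CPM, because TPM holds no composition factor. Standard errors come from the quasi-likelihood F, and 95% intervals from these and the fit's degrees of freedom. Permutation tests used log2 CPM (prior count 2) over all 70 orders; 0.0286 is the smallest p they can give. Mean transcript lengths were tested with limma 3.58.1. Each of 16 table columns matched its sample file. Gene positions are from GENCODE (GRCm38). The edgeR and limma steps were tested on simulated data. Alternatives changed the factors, filter, test (DESeq2 1.42.0, limma-voom), unit, block and libraries.

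The genes and lists were chosen with earlier results of these data known. A gene is shown in every library if its unadjusted p was under 0.05, its genotypes did not overlap, or it was among the 2 highest of its class in control TPM; genes outside this rule are said to be chosen after their values were seen. Of the co-receptors and effectors, those with an unadjusted p under 0.05 are named, except 1 that is not reported here.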

Additional observations from a re-analysis of the deposited data

Results flagged for a closer look

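In 3 of 56 groups of 4 libraries (28 tested genes in 2 genotypes) 1 library lay far from the other 3, and chance flags about 1 group in 20. Nrp2 was low in control NX, at 143 CPM against 215 to 220.3 CPM in the other controls. Sema3f was high in control NX, at 31.4 CPM against 11.8 to 14.3 CPM. Plxna2 was high in knockout QT, at 1257 CPM against 919 to 961 CPM in the other knockout libraries. Without control NX the log2 fold change was -0.068 for Nrp2 and 0.11 for Sema3f. Without knockout QT that of Plxna2 was -0.0014.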

How the results depend on the processing

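No gene of the family and none of the 46 co-receptors and effectors was called in any of 20 alternatives; the smallest adjusted p of a family gene was 0.315 (Sema6b with the prefix block in edgeR's test). The number of genes called over the whole table, 5, became 9 without composition factors, 19 without the low-count filter, 40 in DESeq2, 2 in limma-voom, 10 on log2(TPM + 1) and 28 with a replicate block on the title prefix. Leaving out 1 library or 1 prefix gave 0 to 5. Calls of transcript length were 0 to 2 when a library was left out (2 without knockout QT or control RM, none of the other settings giving any).

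Over these alternatives 17 of the 28 genes kept the sign of their log2 fold change and 11 did not. Nrp1 turned to 0.52 in limma-voom, 0.27 on log2(TPM + 1), 0.35 on log2(TPM + 0.1) and 0.17 with the block. Nrp2 turned to -0.020, -0.12, -0.12 and -0.039 in the same 4. Plxnd1 turned to 1.82 in limma-voom, 0.46 on log2(TPM + 0.1) and 0.39 with the block, and Sema3d to 0.87 in limma-voom. Leaving out libraries or prefixes gave -0.66 to 0.42 for Nrp1, -0.38 to 0.32 for Nrp2, -0.0014 to 0.27 for Plxna2, -0.15 to 0.13 for Plxna3, -0.31 to 0.059 for Plxna4, -0.95 to 0.52 for Plxnd1, -0.32 to 0.36 for Sema3c, -1.05 to 0.10 for Sema3d, -0.51 to 0.11 for Sema3f, -0.23 to 0.14 for Sema4d and -0.82 to 0.092 for Sema4f. The cause was not tested.

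The prefixes were not taken as pairs in the main fit, since the labels state no model. Deviations from the genotype means did correlate within prefixes, at 0.385, 0.303, 0.0658 and 0.450 for NX, NY, QT and RM. Of 8 libraries, 7 correlated best with their own prefix, knockout QT being the exception. The main p-values leave out this likeness. With the block in edgeR's test, the family genes at an unadjusted p under 0.05 became Sema6b and Plxnb2 (lower) and Sema5a (higher), without Sema4b. The share of all genes at that level in this fit is not given here, so nothing is read from their number. The unadjusted p of Sema6b was 0.0039 in that edgeR fit, and its adjusted p was 0.315. For transcript length in limma with the block, Sema4a and Sema6d reached an unadjusted p under 0.05, 2 of 19, with none called. The share of all genes at that level with the block is not given here either, and nothing is read from this count. With 4 pools per genotype, the 95% intervals of genes with low or uneven counts, such as Sema3d and Plxnd1, span more than a 2-fold change either way.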
